A study of Homo sapiens with 18 samples.

Results

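The response of sgXIST9 cells to low oxygen was compared with that of sgControl cells, gene by gene, in OVCAR3-KRAB cells. OVCAR3 is a cell line from an ovarian cancer, and its OVCAR3-KRAB derivative expresses dCas9-KRAB, a Cas9 without nuclease activity that is fused to a repressor domain and that an sgRNA directs to a promoter. The sgControl cells carry an sgRNA against Gal4, which has no target in these cells, and the sgXIST9 cells carry an sgRNA against XIST. Hypoxia was 24 h in a chamber with 1% oxygen, and the other cells stayed in normoxia. Of the 18 RNA-seq libraries of the series, 12 entered the comparison, 3 for each of sgControl normoxia, sgControl hypoxia, sgXIST9 normoxia and sgXIST9 hypoxia. The other 6 are of sgXIST7, cells with another sgRNA against XIST, and their values are set beside those of sgXIST9 for some of the genes. Each sgRNA was studied in clonal cells, and all of these cells carry dCas9-KRAB, so that the sgRNA and any other difference between 1 clone and another cannot be told apart. The study calls the 3 replicates of a group biological. How the cultures were separated was not given in the sources used here, and p-values measure the spread between these libraries.

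Cells sense a fall in oxygen through the HIF hydroxylases. When these enzymes lack oxygen, HIF-1 alpha and HIF-2 alpha escape degradation, pair with HIF-1 beta and bind the core of the hypoxia response element in DNA. Genes of glucose uptake and glycolysis, of angiogenesis and of mitophagy are then induced, while translation, DNA replication and cell division slow down. XIST is the long noncoding RNA that coats and silences an X chromosome in female cells.

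For each gene, the hypoxia response is the log2 level in hypoxia minus that in normoxia, and the difference between clones is the response of sgXIST9 minus the response of sgControl. Levels are given as CPM, the counts of a gene scaled to a common library size, after TMM normalization, in the order of replicates 1, 2 and 3. A gene was called with an edgeR quasi-likelihood test when its Benjamini-Hochberg adjusted p-value was under 0.01 and its log2 value was above 1 in size, over the 14938 genes tested.

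Total counts ranged from 11794375 to 22674565 in the 12 libraries, and 3 counts, taken as the limit of detection, stood for 0.134 to 0.266 CPM. XIST, the targeted gene, had 329, 867 and 242 CPM in sgControl normoxia and 29.0, 53.6 and 52.4 CPM in sgXIST9 normoxia. In hypoxia it had 123, 249 and 141 CPM in sgControl and 16.3, 21.4 and 32.2 CPM in sgXIST9, so that all sgXIST9 libraries lay below all sgControl libraries. The XIST response did not differ detectably between the clones, with a log2 difference of 0.53 (SE 0.57, edgeR adjusted p = 0.64). Of 14 markers of ovarian epithelial cells, 6 (KRT7, FOLR1, SOX17, MECOM, CDH6 and WFDC2) had at most 3 counts in each of the 12 libraries, MUC16 had at most 4, and EPCAM, KRT18, KRT8 and PAX8 were detected. WT1, MSLN and EMX2 had more than 3 counts in at least 1 library. CDH1 had at most 1 count. Several defining markers of the labelled cell type were thus absent. Of 14 leukocyte and 8 endothelial markers, 9 and 4 had at most 3 counts in each library, PTPRC, CD3E and CDH5 among them. CD4, CD14, CD68, ITGAM, LYZ, PECAM1, VWF, TEK and ESAM had more in at least 1 library. The summed leukocyte level was 24.8 to 30.3 CPM in sgControl normoxia and 14.3 to 27.3 CPM in hypoxia. In sgXIST9 it was 37.4 to 56.2 CPM and 15.3 to 25.8 CPM. The summed endothelial level was 0.603 to 0.689 CPM and 2.04 to 5.21 CPM in sgControl. In sgXIST9 it was 0.409 to 0.536 CPM and 1.51 to 3.36 CPM. The part of these sums in the results was not tested. RN7SL1, the RNA of the signal recognition particle, took 3.46% to 4.57% of counts in sgControl normoxia, 5.62% to 7.25% in sgControl hypoxia, 4.86% to 4.99% in sgXIST9 normoxia and 5.05% to 8.13% in sgXIST9 hypoxia, and the part of this in the results was not tested. In the hypoxia groups, replicate 3 stood apart from replicates 1 and 2 on the fourth principal component, at -38.3 against 26.8 and 39.2 in sgControl, and at -40.6 against -1.34 and 16.9 in sgXIST9. The counts of called genes and list members in the comparison of responses are therefore also given without hypoxia replicate 3 of every group.

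The hypoxia response was higher in sgXIST9 for 99 genes (0.663% of those tested) and lower for 52 (0.348%). Most HIF target genes and glycolytic enzymes rose in both clones and were not called different. The 5 called genes of a mitosis list, FOSL2 and DUSP5 of AP-1 and ERK feedback, and HK2 of glycolysis had lower responses in sgXIST9. ADM, IGFBP3, ALDH1A3, FBN1, FN1 and 4 HOXB genes had higher ones. Without hypoxia replicate 3 of every group, 552 of 15278 genes tested were higher and 270 lower. Of the 151 genes, 146 were called again in that fit. With the replicate number as a block within each oxygen level, 272 of 14938 were higher and 124 lower, with 150 of the 151 among them. The counts of list members in these fits, given below, are to be read beside these larger totals. In a fit of only the 12 libraries, 66 were higher and 24 lower, with 85 of the 151 among them. Of the 52 called genes that the rule names, BIRC5, TPX2, ECT2, FOXM1, ANLN, CCNE2, FOSL2, NR3C1, TJP3, FN1, ELOVL6, HOXB6, WNK3, ARHGAP4 and NHS were not called in that fit, with edgeR adjusted p-values from 0.011 to 0.031. Under upper-quartile scaling the split was 131 higher to 41 lower, against 99 to 52 with TMM.

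Within sgControl, 1681 genes rose in hypoxia (11.3%) and 1268 fell (8.49%). Within sgXIST9, 2192 rose (14.7%) and 1280 fell (8.57%). The 151 genes were sorted by these calls as a description, since the difference is made from the same responses. Of the 99 genes with a higher response, 44 rose in sgXIST9 and were not called in sgControl, 21 fell in sgControl and were not called in sgXIST9, and 12 rose further in sgXIST9. A further 7 fell in sgControl and rose in sgXIST9, and 15 were called in neither clone alone. Of the 52 genes with a lower response, 14 rose in sgControl only, 8 rose less in sgXIST9, 13 fell in sgXIST9 only, 12 fell further in sgXIST9 and 5 were called in neither. The median response of the 99 genes was -0.35 in sgControl, 1.53 in sgXIST9 and 0.91 in sgXIST7, beside medians of 0.02, 0.09 and 0.01 over all genes tested. The median response of the 52 genes was 0.59 in sgControl, -0.96 in sgXIST9 and -0.38 in sgXIST7.

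**Figure D1:**
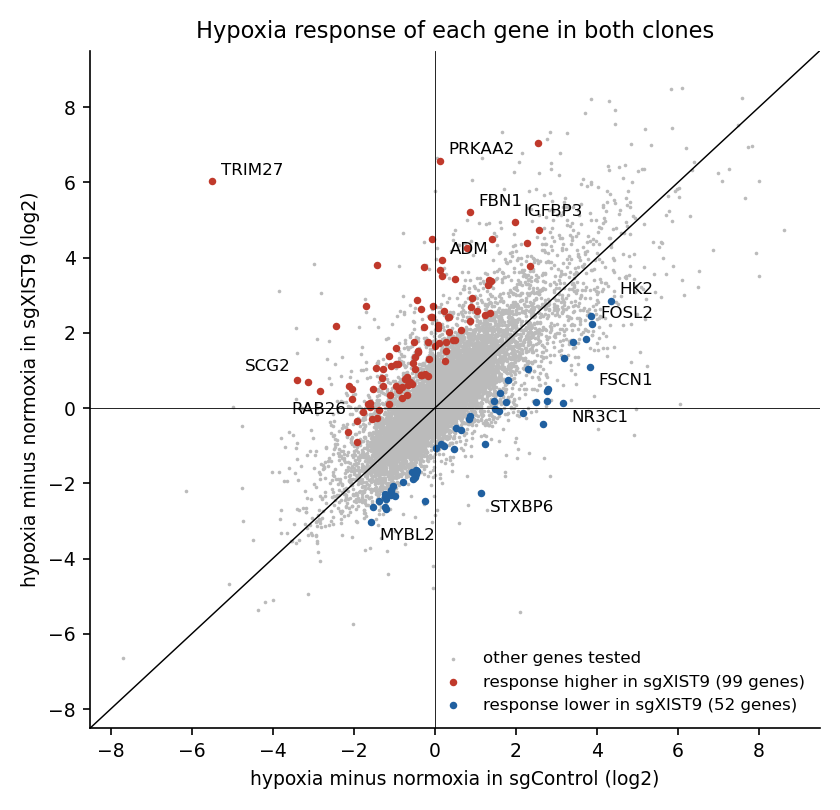
Hypoxia response (log2, hypoxia minus normoxia) of the 14938 genes tested in sgControl (horizontal axis) and sgXIST9 (vertical axis), with a diagonal line where both are equal. The 99 genes with a higher response in sgXIST9 (red) lie above the diagonal and the 52 with a lower response (blue) below it, and both sets include genes that rose and genes that fell.

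A larger response can come with a lower start or with a higher end, and the called genes held both patterns. Over all genes, sgXIST9 was higher than sgControl for 587 genes (3.93%) and lower for 563 (3.77%) in normoxia, and higher for 917 (6.14%) and lower for 506 (3.39%) in hypoxia. Of the 99 genes, 50 were lower in sgXIST9 in normoxia, and 33 of these were not called in hypoxia, 16 were still lower and 1 was higher. Another 33 of the 99 were not called in normoxia and were higher in hypoxia. Of the 52 genes, 21 were lower in sgXIST9 in hypoxia and not called in normoxia. A further 13 were higher in normoxia and not called in hypoxia, and 6 were higher at both oxygen levels. These contrasts share their libraries with the difference of responses and are given as levels.

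Most HIF target genes rose in both clones. Of 48 genes of a list of canonical HIF targets other than glycolytic enzymes, 41 rose in sgControl and 41 in sgXIST9, and none fell. The median response of the list was 3.0 in sgControl and 2.89 in sgXIST9, and the median difference was 0.01, against 0.04 over all genes. PLOD2, a collagen lysyl hydroxylase, rose by a log2 value of 3.96 in sgControl and 3.93 in sgXIST9, and the mitophagy receptor BNIP3 by 3.50 and 3.10. BNIP3L, another mitophagy receptor, rose by 4.18 and 5.06 (difference 0.88, SE 0.42, edgeR adjusted p = 0.23), and WSB1 by 2.02 and 2.28. The genes of the list called in the comparison were ADM and IGFBP3, both higher, and without hypoxia replicate 3 there were 3 higher and 2 lower.

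ADM encodes adrenomedullin, a secreted vasodilator peptide, at chr11:10305073-10307397 on the plus strand of hg38. It had 273, 263 and 325 CPM in sgControl normoxia, 266, 325 and 380 CPM in sgControl hypoxia, 7.81, 6.06 and 7.12 CPM in sgXIST9 normoxia and 88.1, 77.7 and 156 CPM in sgXIST9 hypoxia. The sgControl libraries overlapped between oxygen levels, the sgXIST9 libraries did not, and every sgXIST9 library lay below every sgControl library. ADM rose 15.3-fold in sgXIST9, while its log2 response in sgControl was 0.17 (edgeR adjusted p = 0.57). The difference was 3.76 (SE 0.36, edgeR adjusted p = 3.7e-05), and it stayed called with any of the 12 libraries left out. In sgXIST7, ADM had a response of 4.53, and the responses of sgXIST9 and sgXIST7 differed by -0.60 (edgeR adjusted p = 0.43).

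IGFBP3 encodes a secreted carrier of insulin-like growth factors. It had 167, 128 and 121 CPM in sgControl normoxia, 522, 442 and 689 CPM in sgControl hypoxia, 19.5, 18.1 and 18.2 CPM in sgXIST9 normoxia and 465, 482 and 773 CPM in sgXIST9 hypoxia. The clones overlapped in hypoxia and were apart in normoxia. The rise was 3.98-fold in sgControl and 30.8-fold in sgXIST9, a log2 difference of 2.95 (SE 0.47, edgeR adjusted p = 0.0022). In a fit without a filter on low counts this gene was not called.

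Glycolytic genes rose in both clones, and HK2 was the gene called different, with a smaller rise in sgXIST9. Of 28 genes of glucose uptake, glycolysis and lactate export, 22 rose in sgControl and 23 in sgXIST9, and 1 fell in each. The median response was 1.96 in sgControl and 1.80 in sgXIST9, with a median difference of -0.22. In the fit without hypoxia replicate 3, 2 of the 28 were called lower. LDHA, lactate dehydrogenase A, rose by 1.57 and 1.54, GAPDH by 1.21 and 1.15 and PKM by 1.29 and 1.12, none of them called different. ENO1 had responses of 0.60 and 0.33, below the fold threshold in both clones.

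HK2 encodes hexokinase 2, which phosphorylates glucose, at chr2:74834127-74893358 on the plus strand. It had 37.0, 36 and 34.4 CPM in sgControl normoxia, 743, 743 and 696 CPM in sgControl hypoxia, 67.6, 65.0 and 64.9 CPM in sgXIST9 normoxia and 432, 376 and 622 CPM in sgXIST9 hypoxia. The sgXIST9 libraries were above those of sgControl in normoxia and below them in hypoxia, without overlap. HK2 rose 20.3-fold in sgControl and 7.24-fold in sgXIST9 (log2 difference -1.49, SE 0.25, edgeR adjusted p = 0.0031), and 9.15-fold in sgXIST7. It was called in 7 of the 12 fits that left out a library, with an edgeR adjusted p of up to 0.012.

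The 250 bases before the RefSeq start (build GRCh38.p14) of the 3 called genes of these HIF-related lists are printed in the orientation of the gene, as the windows where a core element could lie. Capitals mark the core of the hypoxia response element, searched as ACGTG or GCGTG on both strands (CACGT and CACGC on the printed strand). The windows are chr11:10304823-10305072 on the plus strand for ADM, chr7:45921273-45921522 on the minus strand for IGFBP3 and chr2:74833877-74834126 on the plus strand for HK2.
ADM: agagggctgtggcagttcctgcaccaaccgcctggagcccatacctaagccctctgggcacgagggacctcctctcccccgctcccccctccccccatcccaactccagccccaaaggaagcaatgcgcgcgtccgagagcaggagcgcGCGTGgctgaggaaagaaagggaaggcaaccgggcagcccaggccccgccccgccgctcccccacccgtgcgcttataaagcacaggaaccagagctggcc
IGFBP3: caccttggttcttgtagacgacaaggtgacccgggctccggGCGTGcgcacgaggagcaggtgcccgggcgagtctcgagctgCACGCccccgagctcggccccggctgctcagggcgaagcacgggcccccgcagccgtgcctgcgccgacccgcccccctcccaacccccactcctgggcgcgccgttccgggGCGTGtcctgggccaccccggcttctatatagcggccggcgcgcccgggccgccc
HK2: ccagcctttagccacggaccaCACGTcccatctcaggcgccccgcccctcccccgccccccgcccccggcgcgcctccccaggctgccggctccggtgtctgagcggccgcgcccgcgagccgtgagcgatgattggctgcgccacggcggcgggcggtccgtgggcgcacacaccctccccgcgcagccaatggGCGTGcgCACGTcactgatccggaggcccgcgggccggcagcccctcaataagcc
The ADM window held 1 match and the IGFBP3 and HK2 windows 3 each. Over windows of 300 bases, which also hold the first 50 bases of the gene, and with overlapping matches counted once, 62.8% of the 11387 tested genes with a RefSeq promoter had a match, as had 43 of 72 genes with a higher response (59.7%) and 24 of 38 with a lower response (63.2%). Among HIF targets, 35 of 40 had a match (87.5%). ACGTG or its reverse complement alone was in 26.3% of all these promoters. It was in 14 of 72 with a higher response (19.4%) and 16 of 38 with a lower response (42.1%). In the HIF target, glycolysis and mitosis lists it was in 55.0%, 44.4% and 41.2%. A match describes the letters only, and these shares were not tested.

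Most genes of cell division fell in hypoxia in both clones, and some fell further in sgXIST9. Of 40 genes of a mitosis list, 36 fell in sgControl and 39 in sgXIST9, with a median response of -1.39 in sgControl and -2.21 in sgXIST9. The median difference was -0.81, against 0.04 over all genes, and 38 of the 40 differences were below 0. BIRC5, TPX2, ECT2, FOXM1 and ANLN were called lower and none was called higher. Without hypoxia replicate 3, 12 genes of the list were called lower, with the block within oxygen levels 11, and the fits that left out 1 library called from 0 to 16. None of the 5 genes was called in the fit of only the 12 libraries (edgeR adjusted p from 0.013 to 0.031), and TPX2, ECT2 and FOXM1 were not called under upper-quartile scaling. At an edgeR adjusted p under 0.05 with no fold threshold, a rule added after the data were seen, 19 of the 40 were lower, where that rule called 3.17% of all genes higher and 2.1% lower.

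BIRC5 encodes survivin, a subunit of the chromosomal passenger complex. It had 119, 108 and 124 CPM in sgControl normoxia, 52.3, 64.5 and 35.0 CPM in sgControl hypoxia, 136, 134 and 129 CPM in sgXIST9 normoxia and 20.9, 24.3 and 17.5 CPM in sgXIST9 hypoxia. The sgXIST9 libraries were slightly above those of sgControl in normoxia and clearly below them in hypoxia. BIRC5 fell 2.31-fold in sgControl and 6.36-fold in sgXIST9, a log2 difference of -1.46 (SE 0.27, edgeR adjusted p = 0.0061). It was called in 2 of the 12 fits that left out a library.

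The other 4 called genes of the list were each called in 1 to 3 of these fits. ANLN, an actin-binding protein of the cleavage furrow, had a response of -1.53 in sgControl and -2.64 in sgXIST9 (difference -1.11, SE 0.20, edgeR adjusted p = 0.0057). TPX2, which activates Aurora A on the spindle, had -1.08 and -2.23, and ECT2, a guanine nucleotide exchange factor of cytokinesis, -1.09 and -2.18. FOXM1, a transcription factor of G2 and M phase genes, had -0.45 in sgControl (edgeR adjusted p = 0.04) and -1.68 in sgXIST9. MYBL2, a transcription factor that acts with FOXM1 on cell cycle genes, was not in the list and was called as a larger fall. Its levels were 138, 137 and 148 CPM in sgControl normoxia and 47.8, 49.9 and 43.2 CPM in hypoxia, against 170, 170 and 167 CPM and 20.7, 25.7 and 15.9 CPM in sgXIST9. MYBL2 fell 3.0-fold in sgControl and 8.12-fold in sgXIST9 (log2 difference -1.44, SE 0.19, edgeR adjusted p = 0.00063), called with any library left out.

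The most abundant members that were not called had smaller differences or wider spread. TOP2A, the topoisomerase that untangles chromosomes, had a difference of -0.60 (SE 0.20, edgeR adjusted p = 0.088), ASPM -0.63 (SE 0.19) and CENPF -0.26 (SE 0.25). MKI67, which encodes the Ki-67 antigen, had a difference of -1.10 with an SE of 0.43 (edgeR adjusted p = 0.15). Its sgControl normoxia libraries spread from 352 to 718 CPM.

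Genes of DNA replication also fell, with a smaller median difference. Of 44 genes, 28 fell in sgControl, 40 in sgXIST9 and 39 in sgXIST7, with median responses of -1.19, -1.74 and -1.90. The median difference between sgXIST9 and sgControl was -0.47. TK1 and CCNE2 were called lower and none higher, 9 genes were lower at an edgeR adjusted p under 0.05, and without hypoxia replicate 3 there was 1 call. TK1, thymidine kinase, had 85.2, 85.6 and 91.2 CPM in sgControl normoxia and 129, 118 and 132 CPM in hypoxia, against 87.6, 92.2 and 85.7 CPM and 60.2, 69.8 and 52.2 CPM in sgXIST9. The clones overlapped in normoxia and moved apart in hypoxia, by 0.53 upward in sgControl and by -0.54 in sgXIST9, each under the fold threshold (difference -1.07, SE 0.16, edgeR adjusted p = 0.0013). Without hypoxia replicate 3 its difference was -0.94 and under the fold threshold. CCNE2, cyclin E2, had responses of -0.50 and -1.82 and was called in 2 of the 12 fits that left out a library. The ribonucleotide reductase subunit RRM2, with responses of -2.19 and -2.64, and the helicase subunits MCM4, MCM7 and MCM2, with differences of -0.55, -0.45 and -0.26, were not called.

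**Figure D2:**
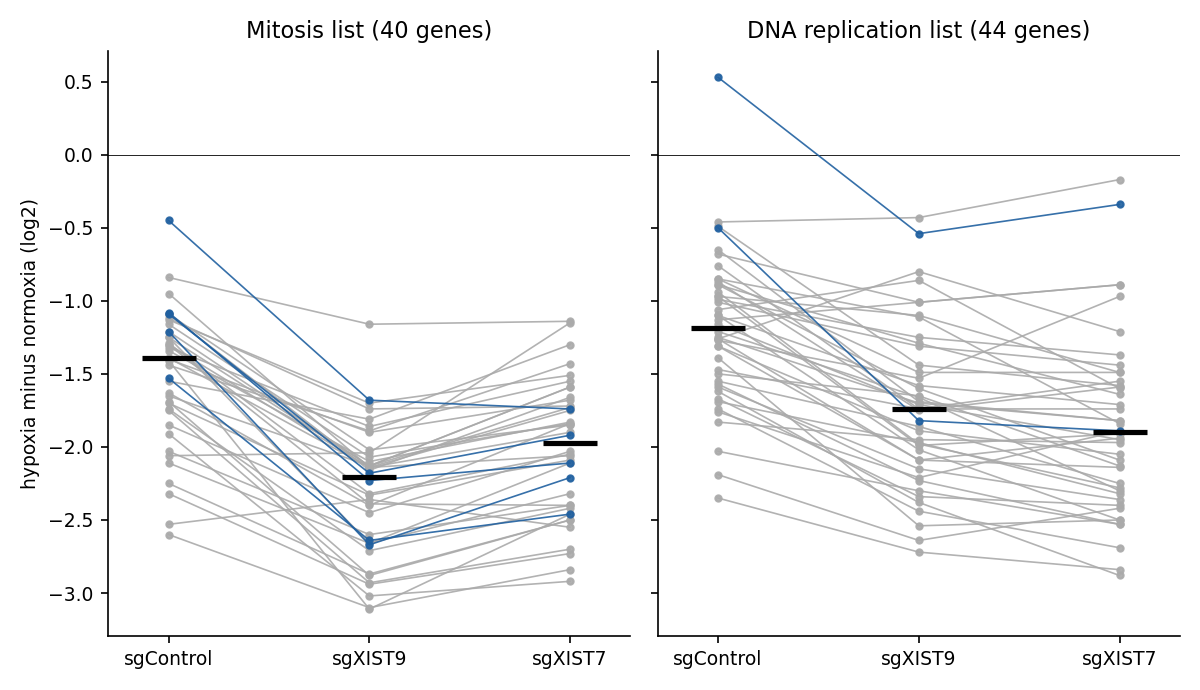
Hypoxia response (log2) of each gene of the mitosis list (left, 40 genes) and the DNA replication list (right, 44 genes) in sgControl, sgXIST9 and sgXIST7. Lines join the values of a gene, blue marks genes called lower in sgXIST9 than in sgControl, and black bars are medians, which for mitosis lie at -1.39, -2.21 and -1.98.

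FOSL2 and DUSP5 were the called genes of a list of AP-1 and ERK-feedback genes, both lower in sgXIST9. The listed genes are early targets of growth factor and stress kinases, and include inhibitors that act back on ERK. Of 32 genes, 17 rose in sgControl and 12 in sgXIST9, and 1 fell in each. The median response was 1.62 in sgControl and 0.87 in sgXIST9, with a median difference of -0.40. Without hypoxia replicate 3 there were 8 lower calls and no higher one. JUND, SPRY2 and SPRY1 had differences of -0.30, 0.21 and 0.11 and were not called.

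DUSP5, a nuclear phosphatase of ERK, had 4.23, 4.87 and 5.05 CPM in sgControl normoxia, 35.3, 35.2 and 26 CPM in sgControl hypoxia, 17.1, 19.3 and 20.4 CPM in sgXIST9 normoxia and 25.8, 19.9 and 32.7 CPM in sgXIST9 hypoxia. The sgXIST9 libraries started above those of sgControl and overlapped between oxygen levels. DUSP5 rose 6.82-fold in sgControl and its log2 response in sgXIST9 was 0.46 (edgeR adjusted p = 0.06), a difference of -2.31 (SE 0.30, edgeR adjusted p = 0.00042). FOSL2, the AP-1 subunit Fra-2, had 13.2, 10.1 and 5.68 CPM in sgControl normoxia and 143, 140 and 140 CPM in hypoxia, against 18.1, 21.2 and 21.2 CPM and 83.9, 86.4 and 116 CPM in sgXIST9. It rose in both clones, 14.6-fold in sgControl and 4.73-fold in sgXIST9 (log2 difference -1.63, SE 0.29, edgeR adjusted p = 0.005), and was called in 4 of the 12 fits that left out a library. PHLDA1 had 2.53 to 9.06 CPM in sgControl normoxia and 517 to 559 CPM in sgXIST9 normoxia, and its difference of -1.47 was not called (edgeR adjusted p = 0.1).

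Of 13 NF-kB-responsive genes, RELB was called lower. RELB, an NF-kB subunit of the noncanonical pathway, had 12.1, 15.3 and 13.8 CPM in sgControl normoxia and 32.3, 36.8 and 44.2 CPM in hypoxia, against 15.2, 16.1 and 16.4 CPM and 15.2, 19.3 and 20 CPM in sgXIST9. It rose in sgControl alone, where its groups did not overlap (difference -1.26, SE 0.23, edgeR adjusted p = 0.005), and was called in 4 of the 12 fits that left out a library. NFKB2, its partner, rose in both clones by 1.92 and 1.35, and its difference of -0.57 was not called. The median difference of the list was -0.35, and 1 gene was called lower without hypoxia replicate 3.

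FBN1, FN1 and COL27A1, genes of the extracellular matrix, had higher responses in sgXIST9. Of 31 genes of a mesenchymal list, 5 rose and 1 fell in sgControl, and 7 rose and none fell in sgXIST9. The median difference was 0.44, or 0.21 with genes at the limit of detection set to that limit. FN1 and FBN1 were called higher in the list, and 7 were higher and 2 lower without hypoxia replicate 3. FBN1, which encodes fibrillin-1, had 0.47, 0.928 and 0.976 CPM in sgControl normoxia, 1.19, 1.04 and 2.3 CPM in sgControl hypoxia, 0.536, 0.531 and 0.642 CPM in sgXIST9 normoxia and 22.5, 10.1 and 30.7 CPM in sgXIST9 hypoxia. The hypoxic sgXIST9 libraries lay above all others, and the rise of 36.7-fold in sgXIST9 gave a log2 difference of 4.32 (SE 0.64, edgeR adjusted p = 0.0014).

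FN1, fibronectin, rose in both clones, by 2.54-fold in sgControl and 10.5-fold in sgXIST9 (log2 difference 2.05, SE 0.39, edgeR adjusted p = 0.0074), and FN1 was called in 3 of the 12 fits that left out a library. Its levels were 5.10 to 7.66 CPM in sgControl normoxia and 0.759 to 1.54 CPM in sgXIST9 normoxia, and the hypoxic libraries, at 12.2 to 20.2 CPM and 9.44 to 12.3 CPM, overlapped between the clones. COL27A1, a fibrillar collagen chain outside the list, had 4.16, 4.10 and 4.54 CPM in sgControl normoxia and 22.4, 21.3 and 18.4 CPM in hypoxia, against 1.16, 1.27 and 1.23 CPM and 23.5, 24.1 and 30.0 CPM in sgXIST9 (difference 2.12, SE 0.26, edgeR adjusted p = 0.00031). Among abundant mesenchymal genes, VIM had a difference of 0.21, COL5A2 of 0.73, COL6A3 of 1.31 (edgeR adjusted p = 0.076) and the integrin subunit ITGAV of 0.83, none called, and COL5A2 and COL6A3 were called without hypoxia replicate 3. The summed level of 10 fibroblast markers was 944 to 987 CPM in sgControl normoxia, 749 to 1030 CPM in sgControl hypoxia, 654 to 716 CPM in sgXIST9 normoxia and 444 to 706 CPM in sgXIST9 hypoxia, with FAP at no more than 3 counts in each library. Its part in these results was not tested.

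Of 39 epithelial genes, 19 could be tested. The tight junction protein TJP3 (ZO-3) was called higher. It had 8.72, 7.35 and 7.81 CPM in sgControl normoxia and 1.63, 1.04 and 3.46 CPM in hypoxia, while sgXIST9 had 15.6, 12.8 and 17.5 CPM and 19.1, 15.5 and 31.4 CPM. It fell in sgControl alone, and the sgXIST9 libraries overlapped (difference 2.57, SE 0.44, edgeR adjusted p = 0.0038), with a call in 6 of the 12 fits that left out a library. PLEKHA7, an adherens junction protein outside the list, had 4.02 to 5.88 CPM in sgControl normoxia, 2.66 to 4.62 CPM in sgControl hypoxia, 0.179 to 0.266 CPM in sgXIST9 normoxia and 2.52 to 3.40 CPM in sgXIST9 hypoxia (difference 3.99, SE 0.42, edgeR adjusted p = 6.6e-05). Its sgXIST9 normoxia levels were near the limit of detection. EPCAM, KRT18, DSP and PKP3 had differences of 0.22, 0.06, -0.45 and -0.21 and were not called. Leaving out hypoxia replicate 3 gave 1 higher call among the 19. The median difference of the 19 genes was 0.82, or 0.26 with genes at the limit of detection set to that limit.

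Among markers of cancer stem cells, which the study followed in hypoxia, ALDH1A3 was called. Of 18 such markers, 10 were tested, with 1 called higher and 1 lower without hypoxia replicate 3, and CD44, PROM1, ABCG2, SOX2 and POU5F1 had at most 3 counts in each library. ALDH1A3, an aldehyde dehydrogenase that makes retinoic acid, had 7.85, 6.5 and 6.37 CPM in sgControl normoxia, 5.94, 3.47 and 5.94 CPM in sgControl hypoxia, 0.223, 0.212 and 0.117 CPM in sgXIST9 normoxia and 1.14, 1.36 and 1.77 CPM in sgXIST9 hypoxia. Every sgXIST9 library lay below every sgControl library, also in hypoxia, where the log2 level was lower by -1.84 (edgeR adjusted p = 0.00032). It rose 7.30-fold in sgXIST9 and had a log2 response of -0.44 in sgControl (difference 3.31, SE 0.53, edgeR adjusted p = 0.0022). In sgXIST9 normoxia, 3 counts stood for 0.134, 0.159 and 0.175 CPM. The ALDH1A3 levels there were thus near this limit of detection, and below it in replicate 3, so that the size of the rise is uncertain. The difference was called in 11 of the 12 fits that left out a library.

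CD24, a surface glycoprotein, had 1.07, 1.08 and 1.84 CPM in sgControl normoxia and 6.0, 7.34 and 2.22 CPM in hypoxia, against at most 2 counts in each sgXIST9 normoxia library and 1.69, 1.63 and 0.252 CPM in sgXIST9 hypoxia. It rose in both clones, and the sgXIST9 hypoxia mean was 7.63 times the normoxia limit of 3 counts per library. Replicates 1 and 2 carried this mean, and 3 counts stood for 0.189 CPM in hypoxia replicate 3. The difference was not called (edgeR adjusted p = 0.36), and the sgXIST9 levels are near the limit of detection. NES, the intermediate filament nestin, had 7.0 to 18 CPM in sgControl normoxia and 3.01 to 6.63 CPM in hypoxia, against 315 to 333 CPM and 145 to 211 CPM in sgXIST9. Its responses of -1.42 and -0.84 did not differ detectably (difference 0.57, SE 0.41, edgeR adjusted p = 0.45). ALDH1A1 had a difference of 0.47 and ITGA6 of 0.12, neither called.

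**Figure D3:**
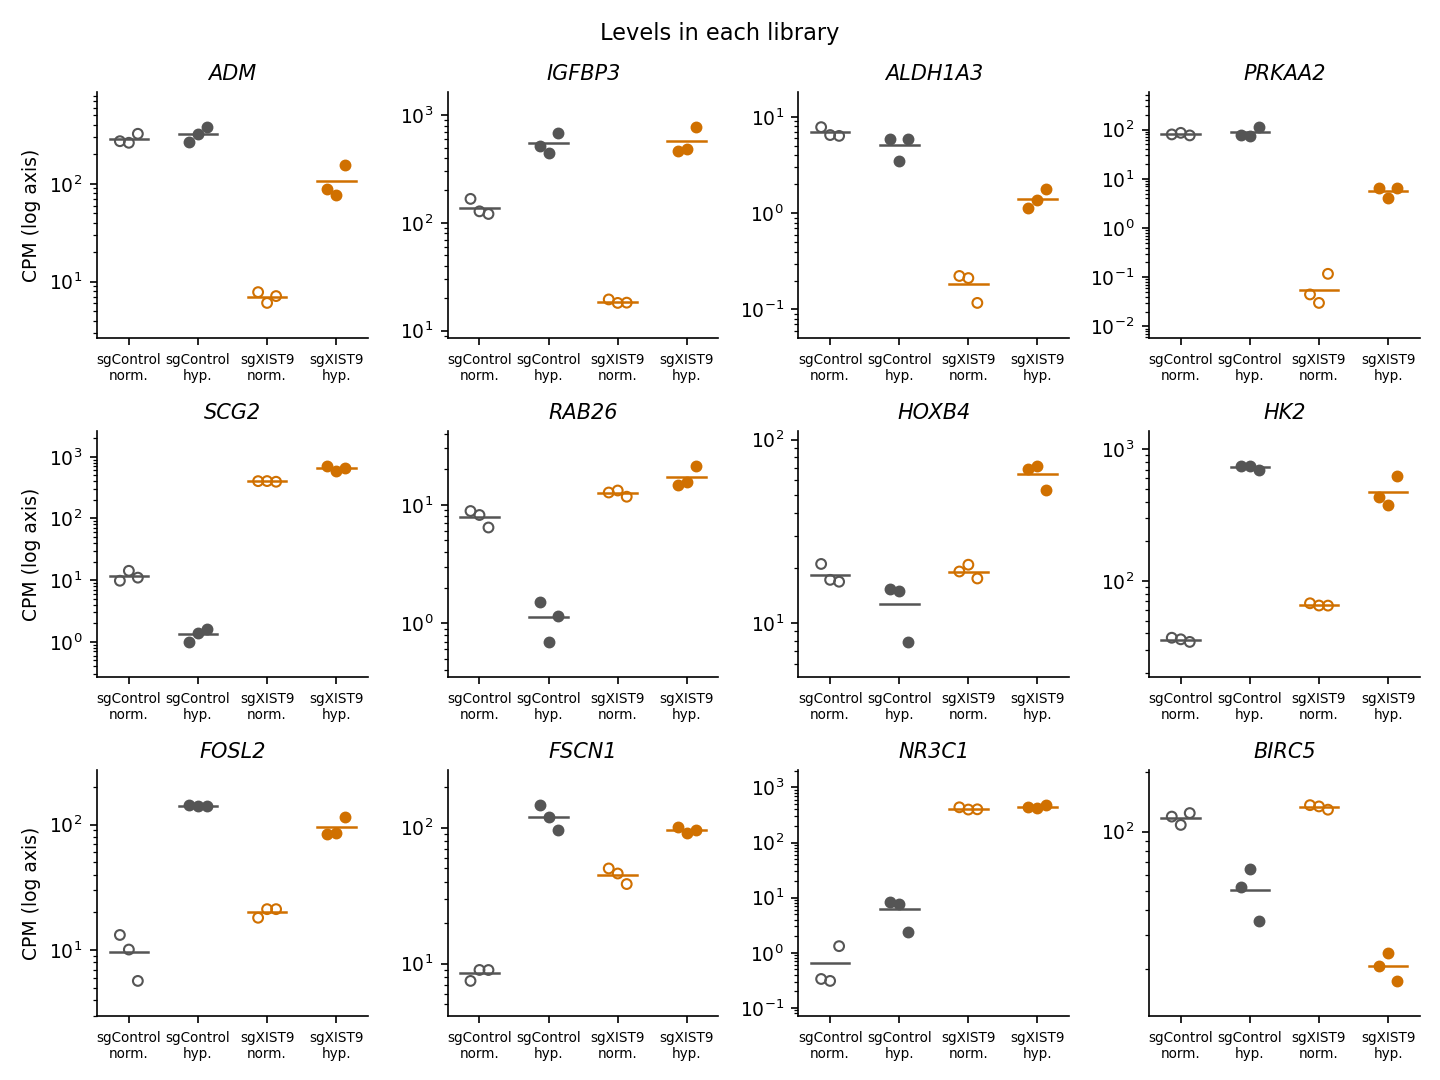
CPM (log axis, its range set per gene) of 12 genes in each library of sgControl (grey) and sgXIST9 (orange) in normoxia (open) and hypoxia (filled), with bars at group means and a library with 0 counts drawn at 0.03 CPM. ADM, IGFBP3, ALDH1A3 and PRKAA2 started lower in sgXIST9, SCG2 and RAB26 fell in sgControl, and HK2 and FOSL2 rose in both clones, further in sgControl.

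Some genes with a higher response were near or under detection in sgXIST9 normoxia. PRKAA2, which encodes the alpha 2 catalytic subunit of AMPK, had 79.7, 85.8 and 76.1 CPM in sgControl normoxia and 78.7, 73.0 and 112 CPM in hypoxia. In sgXIST9 it had at most 2 counts in each normoxia library and 6.38, 4.08 and 6.37 CPM in hypoxia, a rise of at least 36-fold. Its level in hypoxic sgXIST9 cells remained below that of all sgControl libraries, and its call held with any library left out. GABRA5, a GABA-A receptor subunit, had 19.1 to 22.6 CPM in sgControl normoxia and 5.94 to 10.3 CPM in hypoxia. In sgXIST9 it had at most 1 count in normoxia and 0.126 to 0.41 CPM in hypoxia, where 3 counts stood for 0.136 to 0.189 CPM. The lowest hypoxic library was thus under the limit of detection, and the hypoxia mean was 2.02 times the normoxia limit. GABRA5 was called in 7 of the 12 fits that left out a library. TRIM27 is outside the rule for named genes, chosen with its values known, and had the largest fitted difference. It had 0, 77 and 115 counts in the sgControl normoxia libraries, has exons on alternate contigs and was called in 1 of the 12 fits that left out a library, so that its value is uncertain.

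SFRP1, BMP7, CSRP2, GAB1, MEGF6 and MAP3K15 were also among the genes with higher responses. SFRP1, a secreted Wnt antagonist, had 13.8, 17.3 and 15.9 CPM in sgControl normoxia and 19.3, 16.7 and 17.4 CPM in hypoxia, against 0.357, 0.85 and 0.818 CPM and 9.43, 9.08 and 4.10 CPM in sgXIST9. It rose 11.4-fold in sgXIST9 and its sgControl libraries overlapped (difference 3.33, SE 0.40, edgeR adjusted p = 0.00019). BMP7, a bone morphogenetic protein, had 18.4 to 23.6 CPM in sgControl normoxia, 27.9 to 35.8 CPM in sgControl hypoxia, 0.425 to 1.05 CPM in sgXIST9 normoxia and 5.11 to 9.57 CPM in sgXIST9 hypoxia (difference 2.90, SE 0.38, edgeR adjusted p = 0.00044). The adaptor GAB1 and the LIM protein CSRP2 rose in both clones and further in sgXIST9. CSRP2 had 14.5, 14.5 and 16.2 CPM in sgControl normoxia and 83.9, 68.8 and 76.0 CPM in hypoxia, against 3.62, 3.19 and 2.92 CPM and 44.9, 43.7 and 47.0 CPM in sgXIST9 (difference 1.46, SE 0.15, edgeR adjusted p = 6.6e-05). GAB1 had a difference of 2.01 (SE 0.30), MEGF6 of 3.45 (SE 0.51) and MAP3K15, a MAP kinase kinase kinase, of 3.09 (SE 0.57), the last called in 3 of the 12 fits that left out a library.

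Another group fell in sgControl hypoxia and did not in sgXIST9. SCG2, secretogranin II of secretory granules, had 9.80, 14.2 and 11 CPM in sgControl normoxia, 1.00, 1.39 and 1.59 CPM in sgControl hypoxia, 403, 404 and 394 CPM in sgXIST9 normoxia and 705, 593 and 655 CPM in sgXIST9 hypoxia. It fell 8.83-fold in sgControl, and its log2 response in sgXIST9 was 0.70, under the fold threshold (difference 3.84, SE 0.32, edgeR adjusted p = 1.1e-05). RAB26, a small GTPase of secretory granules, had 8.86, 8.20 and 6.43 CPM in sgControl normoxia and 1.5, 0.695 and 1.15 CPM in hypoxia, against 12.7, 13.2 and 11.7 CPM and 14.7, 15.7 and 21.2 CPM in sgXIST9. It fell 7.11-fold in sgControl alone (difference 3.28, SE 0.36, edgeR adjusted p = 8.7e-05). HMGN5, an X-linked nucleosome-binding protein, had a response of -2.04 in sgControl and 0.23 in sgXIST9, and EFR3B one of -1.30 and 0.79. The tetraspanin CD82 and LOC153684 fell in sgControl and rose in sgXIST9, with responses of -1.07 and 1.13, and of -1.44 and 1.06.

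Of the HOXB cluster on chromosome 17, which encodes homeobox transcription factors of body axis patterning, 4 of 9 genes tested were called higher, where 0.663% of all genes were. The cluster was looked at with these values known, so that the count is a description. HOXB4 and HOXB8 are outside the rule for named genes and were chosen with their values known. HOXB2 had 22.7, 21.5 and 21.9 CPM in sgControl normoxia and 16.3, 16.4 and 13.1 CPM in hypoxia, against 14.3, 14.7 and 14.2 CPM and 29.3, 31.1 and 39.4 CPM in sgXIST9. The order of the clones turned between the oxygen levels, without overlap at either (difference 1.73, SE 0.20, edgeR adjusted p = 0.00012). HOXB4 had 16.8 to 21.0 CPM in sgControl normoxia, 7.89 to 15.4 CPM in sgControl hypoxia, 17.5 to 20.8 CPM in sgXIST9 normoxia and 53.1 to 71.7 CPM in sgXIST9 hypoxia, a difference of 2.27 (SE 0.27, edgeR adjusted p = 0.00019). HOXB6 had responses of -1.27 and 1.03 and HOXB8 of -0.96 and 1.60, and these were called in 7 and in 3 of the 12 fits that left out a library. The same genes had responses of 0.64, 1.34, 0.32 and 1.60 in sgXIST7, for HOXB2, HOXB4, HOXB6 and HOXB8 in that order.

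Several of the largest lower responses were of genes that rose in sgControl from a low start. FSCN1 encodes fascin, which bundles actin filaments. It had 7.45, 8.97 and 8.96 CPM in sgControl normoxia, 146, 120 and 95.9 CPM in sgControl hypoxia, 50.0, 45.9 and 38.4 CPM in sgXIST9 normoxia and 101, 91.1 and 95.7 CPM in sgXIST9 hypoxia. The clones were apart in normoxia and overlapped in hypoxia, and the rise was 14.2-fold in sgControl and 2.14-fold in sgXIST9 (difference -2.73, SE 0.28, edgeR adjusted p = 6.6e-05). TMEM47 had 5.30, 4.25 and 4.94 CPM in sgControl normoxia and 48.1, 45.7 and 39.1 CPM in hypoxia, against 33.6, 33.9 and 36.7 CPM and 86.9, 78.6 and 94.1 CPM in sgXIST9 (difference -1.87, SE 0.16, edgeR adjusted p = 1.1e-05). It rose in both clones and was higher in sgXIST9 at both oxygen levels.

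NR3C1, the glucocorticoid receptor, had 0.335, 0.309 and 1.32 CPM in sgControl normoxia, 8.31, 7.79 and 2.39 CPM in sgControl hypoxia, 436, 397 and 401 CPM in sgXIST9 normoxia and 444, 426 and 477 CPM in sgXIST9 hypoxia. The clones were far apart at both oxygen levels. It rose 9.03-fold in sgControl and its sgXIST9 libraries overlapped (difference -3.05, SE 0.52, edgeR adjusted p = 0.0033), with a call in 6 of the 12 fits that left out a library. PPM1K, a mitochondrial phosphatase of branched-chain amino acid breakdown, had 0.939 to 1.95 CPM in sgControl normoxia, 4.52 to 11.6 CPM in sgControl hypoxia, 10.7 to 11.2 CPM in sgXIST9 normoxia and 7.07 to 9.67 CPM in sgXIST9 hypoxia (difference -3.11, SE 0.42, edgeR adjusted p = 0.00063). EPS8L2, MAFA, BEND4 and SDC4 likewise rose in sgControl alone, with differences of -2.34, -2.58, -2.28 and -1.67. ISG20, an interferon-stimulated exonuclease, and MAPK8IP1, a JNK scaffold protein, rose in both clones and less in sgXIST9, with differences of -1.91 (SE 0.27) and -1.25 (SE 0.16). MIR4435-2HG, a long noncoding RNA, had 27.6, 28.6 and 27.7 CPM in sgControl normoxia and 26.4, 30.9 and 12.8 CPM in hypoxia, against 42.8, 46.0 and 42.3 CPM and 7.52, 9.17 and 6.82 CPM in sgXIST9. It fell 5.56-fold in sgXIST9 alone (difference -2.22, SE 0.32, edgeR adjusted p = 0.0012).

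Among enzymes of fatty acid synthesis, 1 was called in each direction. Of 29 genes of cholesterol and fatty acid synthesis, SCD was called lower and ELOVL6 higher, with a median difference of -0.22, and 2 were higher and 1 lower without hypoxia replicate 3. SCD, stearoyl-CoA desaturase, rose in both clones, from 40.0 to 64.9 CPM in sgControl normoxia to 663 to 806 CPM in hypoxia and from 171 to 199 CPM in sgXIST9 normoxia to 923 to 1090 CPM in hypoxia. Its difference was -1.40 (SE 0.27, edgeR adjusted p = 0.0076), called in 3 of the 12 fits that left out a library. ELOVL6, a fatty acid elongase, fell in sgControl by a log2 value of -2.15 and had a response of -0.64 in sgXIST9 (difference 1.51, SE 0.30, edgeR adjusted p = 0.0085), called in 2 of these fits. FASN and ACLY had differences of -0.49 and 0.13 and were not called.

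The remaining lists held no called gene as fitted. Without hypoxia replicate 3, there were 1 higher and 3 lower calls among ATF4 and integrated stress response genes, 2 higher among pro-apoptotic genes, 4 higher and 2 lower among YAP and TGF-beta-responsive genes, and 1 lower among demethylases. With the replicate block within oxygen levels, 4 YAP and TGF-beta-responsive, 3 interferon-stimulated and 1 pro-apoptotic gene were called higher. Over all genes, the fit without hypoxia replicate 3 called 552 higher and 270 lower of 15278. The fit with the block called 272 and 124 of 14938, and the list counts were not tested against these. Among these lists were 38 ATF4 and integrated stress response genes (median difference -0.09, or -0.13 with genes at the limit of detection set to that limit), 24 genes of the unfolded protein response (-0.13), 73 respiratory chain and ATP synthase subunits (-0.05) and 30 pro-apoptotic genes (-0.01). Abundant members such as the amino acid transporter SLC38A2, with a difference of 0.49 (SE 0.15, edgeR adjusted p = 0.06), the alanyl-tRNA synthetase AARS1, with -0.30 (SE 0.37), and the chaperone HSP90B1, with 0.11 (SE 0.22), were not called. Of 33 genes of an interferon-stimulated list, 29 had a difference above 0, the median was 0.69 and none was called. The median response of these genes was -0.44 in sgControl, -0.07 in sgXIST9 and -0.72 in sgXIST7. In sgControl 1 rose and 8 fell, in sgXIST9 4 rose and 3 fell, and in sgXIST7 3 rose and 8 fell. At an edgeR adjusted p under 0.05 with no fold threshold 5 were higher, and 11 were called higher without hypoxia replicate 3. ISG20, an interferon-stimulated gene called lower with a difference of -1.91, was not in this list. Among abundant members, BST2, IFITM3 and DTX3L had differences of 0.56, 0.10 and 0.13. The 25 YAP and TGF-beta-responsive genes had a median of 0.00, or -0.16 with genes at the limit of detection set to that limit, and SKIL among them had a difference of 1.32 (SE 0.38, edgeR adjusted p = 0.054). The 22 oxygen-dependent demethylases of histones and DNA had a median of 0.03, and KDM3A, which demethylates histone H3 lysine 9, rose by 2.90 in sgControl and 2.53 in sgXIST9. KDM5C, an X-linked demethylase of histone H3 lysine 4, rose by 1.34 and 1.36. Of 81 ribosomal protein genes and 4 metallothioneins and zinc transporters none was called, with medians of 0.06 and -0.13.

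**Figure D4:**
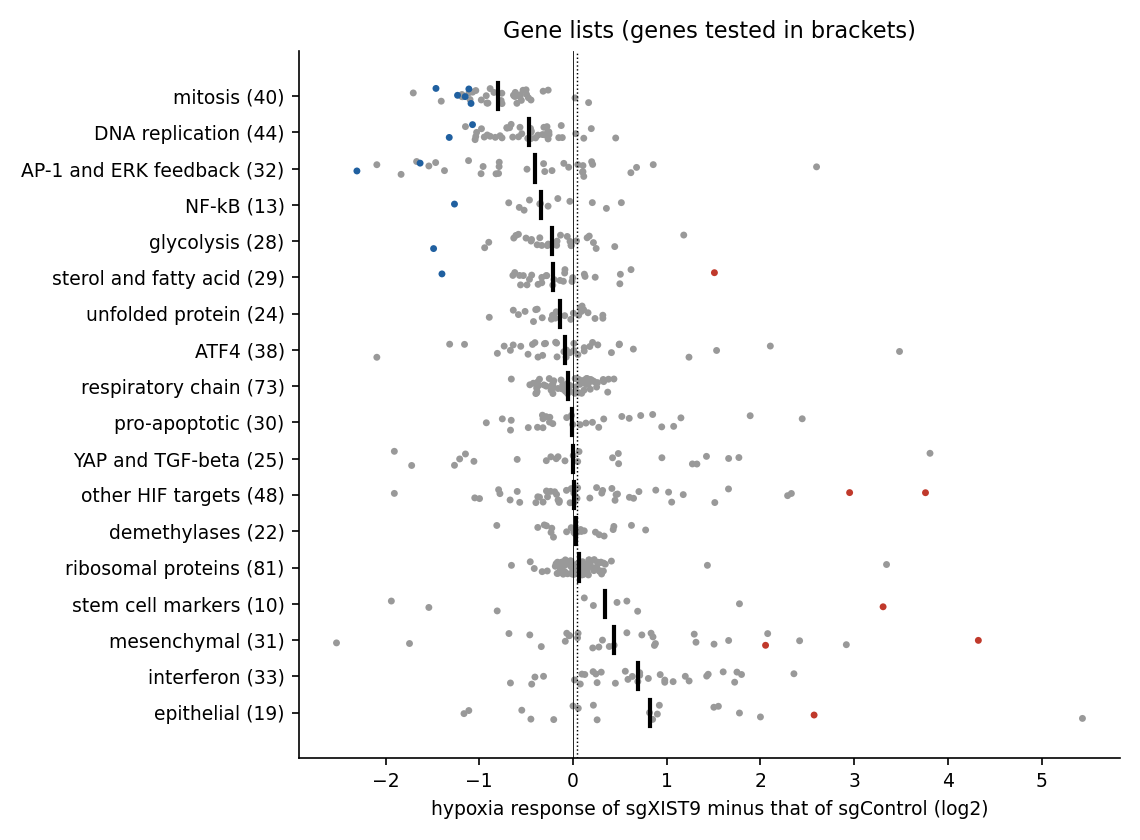
Difference between the hypoxia responses of sgXIST9 and sgControl (log2) for each tested gene of 18 lists, with black bars at the list medians, a dotted line at the median of all genes and called genes in red (higher) and blue (lower). The mitosis and DNA replication lists have medians of -0.81 and -0.47, the epithelial and interferon lists 0.82 and 0.69, and genes under the limit of detection in a group are drawn at their fitted values.

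Of 490 tested genes on chromosome X, WNK3, ARHGAP4, NHS, HMGN5 and MAP3K15 were called higher and TMEM47 lower, which is 6 of 490 (1.22%), near the 1.01% of all genes tested that were called. Their median difference was 0.11, against 0.04 over all genes. Without hypoxia replicate 3 there were 18 higher and 7 lower. This share was near that of all 15278 genes tested in that fit, of which 552 were higher and 270 lower. NHS had at most 3 counts in each sgXIST9 normoxia library and rose at least 3.86-fold there, while it fell in sgControl from 6.24 to 7.66 CPM to 1.00 to 4.25 CPM. ARHGAP4 had responses of -1.14 and 0.10. NHS, ARHGAP4 and WNK3 were each called in 2 of the 12 fits that left out a library. Abundant X-linked genes such as PGK1, a glycolytic enzyme that rose by 2.09 and 1.96, were not called.

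The same responses were then set beside those of sgXIST7. Tested directly, the responses of sgXIST9 and sgXIST7 differed for 13 genes that were higher in sgXIST9 (0.087%) and 12 that were lower (0.0803%). Among the genes described here these were SFRP1, EFR3B, CSRP2 and LOC153684, all higher in sgXIST9, and FSCN1, which rose 8.65-fold in sgXIST7. For ADM, ALDH1A3, HK2, RAB26, BIRC5, MYBL2 and MAPK8IP1 this difference was from -0.60 to 0.43 and was not called. FOSL2 had responses of 3.87 in sgControl, 2.24 in sgXIST9 and 0.97 in sgXIST7, and DUSP5 of 2.77, 0.46 and 2.07. Neither gene was called different between sgXIST9 and sgXIST7. Both comparisons use the sgXIST9 libraries and are not independent of each other.

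**Figure D5:**
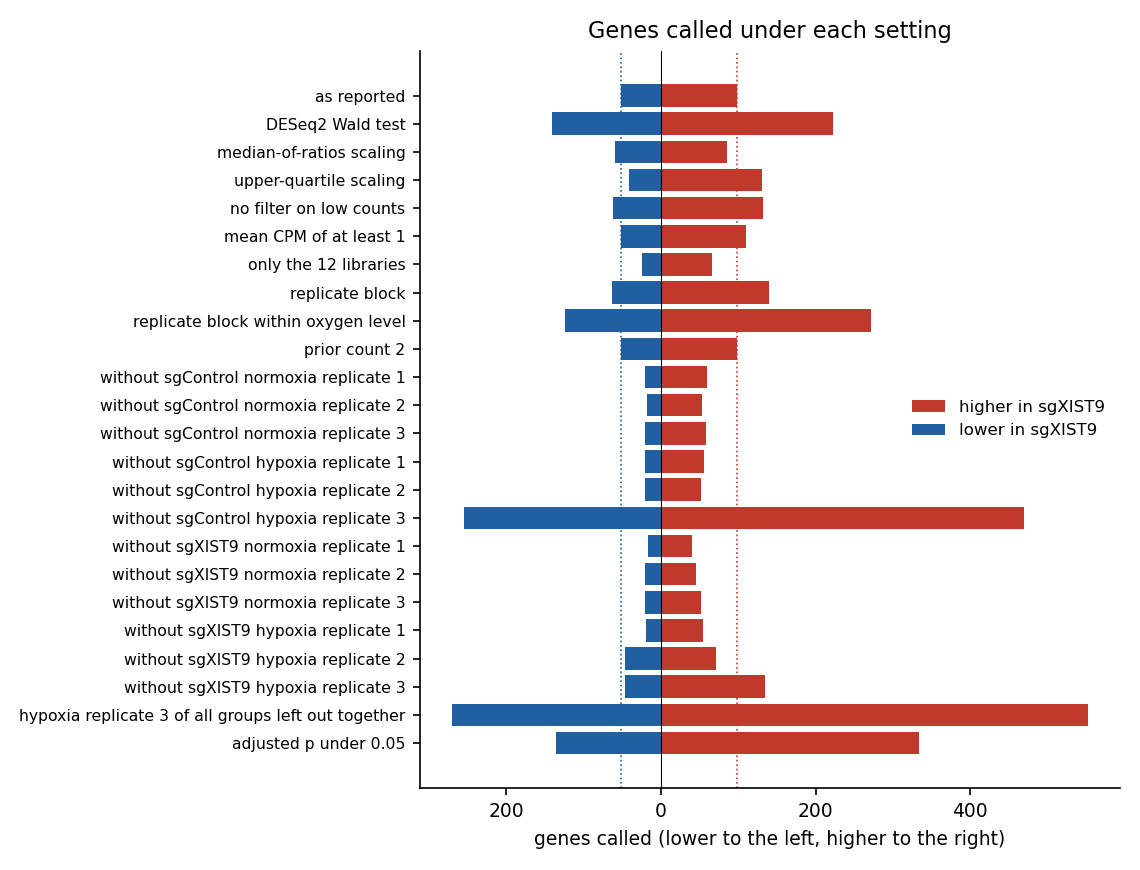
Number of genes with a higher (red, to the right) and a lower (blue, to the left) hypoxia response in sgXIST9 as reported and under each other setting, with dotted lines at 99 and 52. Leaving out hypoxia replicate 3 of sgControl or of all groups gave the most calls, 469 and 552 higher, and leaving out sgXIST9 normoxia replicate 1 the fewest, 40 higher.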

How the data were processed

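RNA was depleted of ribosomal RNA and stranded libraries were sequenced. The authors' processing notes name Trimmomatic, FastQC, HISAT2, DESeq2 and hg38, and the counting setting for strand was not given in the sources used here. The deposited values are whole-number counts per gene without normalization, for 28277 genes by symbol, after 2 broken records with 0 counts were left out. Exon coordinates come from the same table. Counts were fitted with edgeR 4.0.16 (limma 3.58.1, R 4.3.3) as 6 groups of 3 libraries with TMM, filterByExpr (minimum count 10, minimum total 15), glmQLFit with robust estimation, glmQLFTest and a prior count of 0.125, and p-values were adjusted by the Benjamini-Hochberg method. The script was tested on simulated counts with differences planted in sgXIST9 hypoxia alone. These counts held no clone, oxygen or replicate effects, so that the test covers the contrast and not the stability of the calls. Replicates of a group differed by more than sampling noise. Standard errors were computed from the log2 value and its F statistic. Gene lists were written by hand, and list symbols were matched through older symbols. The members and lists were chosen with earlier results of these data known, and lists were not tested as sets. Genes are named by these rules: the 12 largest differences in each direction among called genes with a mean of at least 100 counts and oxygen groups apart in either clone, genes the study follows, the called and 4 most abundant other genes of each list, and the 4 smallest adjusted p-values in each class of called genes. Alternatives were DESeq2 1.42.0, other scalings and filters, fits of 12 libraries, replicate blocks, another prior count and threshold, and libraries left out. The fit without hypoxia replicate 3 of all groups was planned, and giving its values beside the results was chosen after seeing the data. Exons of TJP3, MAP3K15, ALDH1A3, PRKAA2, HOXB6, FOXM1, ANLN and CCNE2 overlap those of a gene on the other strand, and without a known strand setting their reads cannot be told apart. The sgRNA spacers were not used here. Some genes chosen by these rules are not reported here.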

Additional observations from a re-analysis of the deposited data

Results flagged for a closer look

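The hypoxia response differed between sgXIST9 and sgControl for 99 genes that were higher and 52 that were lower in sgXIST9, by the edgeR test of the difference itself. Against sgXIST7, tested in the same way, 13 genes were higher and 12 lower. Among the genes described in the report, the response of sgXIST9 minus that of sgXIST7 was 2.39 for SFRP1 (SE 0.40, edgeR adjusted p = 0.0085), 1.70 for LOC153684 (SE 0.26, edgeR adjusted p = 0.0056), 1.43 for EFR3B (SE 0.22, edgeR adjusted p = 0.006), 1.01 for CSRP2 (SE 0.15, edgeR adjusted p = 0.0054) and -2.01 for FSCN1 (SE 0.27, edgeR adjusted p = 0.0023). Groups of 3 libraries were not searched for single outlying values.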

How the results depend on the processing

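Of the 151 called genes, none changed sign in any fit, and 49 were called in each of the 12 fits that left out a library (34 higher and 15 lower). The counts of higher and lower genes were 223 and 141 with DESeq2, 66 and 24 in a fit of only the 12 libraries, 333 and 135 at an adjusted p under 0.05, 272 and 124 with a replicate block within oxygen levels, and 552 and 270 without hypoxia replicate 3 of all groups. Leaving out 1 library gave from 40 to 469 higher and from 17 to 255 lower. The fewest came without sgXIST9 normoxia replicate 1 (40 and 17), the most without sgControl hypoxia replicate 3 (469 and 255), and the cause was not tested. A replicate block over all 18 libraries gave 140 and 63. Deviations of same-numbered libraries correlated between the hypoxia groups (Pearson's r of 0.252, 0.542 and 0.586 over genes) but from -0.0701 to 0.127 between other groups, so that the numbers do not pair the whole design. In hypoxia, sgControl replicate 1 correlated with sgXIST9 replicate 2 at 0.293, above the 0.252 of the same number. The pairing of replicate 1 is thus not shown. Other scalings, filters and the prior count kept both counts within 1.5 times. Of 52 named called genes, 51 stayed called without hypoxia replicate 3 of all groups, TK1 being the exception. Of their values with 1 library left out, 173 were no longer called and 451 were, and under the other settings 23 were not and 497 were. Precision is limited by 3 libraries a group and, for genes near 0.2 CPM, by depth.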
